A study of Mus musculus with 4 samples.

Results

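The nuclear genes for the subunits of oxidative phosphorylation were examined in sorted cells of the postnatal mouse retina. Members were taken by gene symbol (Nduf, Sdh, Uqcr, Cyc1 and Cycs, the Cox subunit symbols and Atp5), which gave 85 of the 23021 gene lines in the expression tables and 85 of the 21826 genes analysed. By function, 35 belonged to complex I, 4 to complex II, 9 to complex III, 1 was cytochrome c, 19 belonged to complex IV and 15 to ATP synthase. The last 2, Atp5s and Atp5sl, share the symbol but are not structural subunits. Ndufa4 and Ndufa4l2 were counted with complex IV, because Ndufa4 is known as a subunit of that complex in spite of its name. Moving both genes to complex I left the median fraction differences of complexes I and IV at the same values.

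The cells came from retinas of pHes1-EGFP mice, for which the labels give the strain FVB/N, at postnatal day 1 (P1) and day 4 (P4). In these mice a 2.5-kb Hes1 promoter drives destabilized EGFP, so the sort marks cells with recent activity of that promoter fragment, and all 4 groups carry the transgene. EGFP-positive cells (pHes1_EPC) and EGFP-negative cells (pHes1_ENC) of each age were sequenced in 1 library each, with no treatment. How many animals went into a library was not given in the sources used here, and without replicates every difference below compares libraries and has no test.

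Oxidative phosphorylation is carried out in the inner mitochondrial membrane. Complexes I and II pass electrons to ubiquinone, complex III passes them through cytochrome c to complex IV, which reduces oxygen, and ATP synthase uses the proton gradient built by complexes I, III and IV. A few subunits exist as isoforms from separate genes that are known for use in particular tissues or under low oxygen, and photoreceptors are known as cells with a high demand for ATP.

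The values are FPKM (fragments per kilobase of transcript and 1e6 mapped fragments), estimated for each gene with a 95% interval. The interval comes from 1 library and does not cover variation between libraries or animals. A difference is the difference of log2(FPKM + 1), which understates the change of low genes, and a difference beyond 1 in either direction is called more than 2-fold here. A mean FPKM of at least 1 was reached by 12176 genes and by 82 of the 85 members. The other 3 members, Cox6a2, Cox7b2 and Cox8c, did not exceed 0.112 FPKM in any library. Depth, inferred from the interval widths as if they held counting error alone, was 10.7 to 11.4 in units of 1e6 reads per library over the genes analysed. The summed FPKM of these genes was not equal, from 277413 in P1 pHes1_ENC to 371995 in P4 pHes1_EPC, and the median difference of all 12176 genes was 0.03 between the fractions at P1 and 0.16 at P4. All 8 markers of Müller glia and progenitors were more than 2-fold higher in pHes1_EPC at both ages. The 3 rod markers were more than 2-fold lower there at both ages, but Nrl was at 184 FPKM in P4 pHes1_EPC and 875 FPKM in P4 pHes1_ENC, so rod RNA was present in both P4 libraries.

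Subunit mRNAs were abundant. The 85 members together summed at P1 to 5812 FPKM in pHes1_ENC and 6773 in pHes1_EPC, and at P4 to 8525 and 12633. These sums were 2.095%, 2.30%, 2.81% and 3.40% of the FPKM of all genes analysed, in the same order. Both P4 libraries therefore lay above both P1 libraries, and pHes1_EPC lay above pHes1_ENC at each age. The catalytic beta subunit of ATP synthase, Atp5b, had 320, 348, 433 and 460 FPKM. Lists of 4 values, here and below, give the negative and then the positive fraction of P1, followed by the same fractions of P4. Atp5b had the highest FPKM of the members in the other 3 libraries, but in P4 pHes1_EPC Atp5e at 551 FPKM and Cox4i1 at 466 FPKM were listed above it. By intervals, Atp5e lay below Atp5b there, at 273 to 303 beside 405 to 422 FPKM, and the deposited FPKM of Atp5e was 1.91 times the midpoint of its own interval. By complex, the sum in P4 pHes1_EPC was 3513 FPKM for complex I, 308 for complex II, 1401 for complex III, 15.0 for cytochrome c, 3355 for complex IV and 4022 for ATP synthase. The 26 symbols of mitochondrially encoded proteins and RNAs searched for had no line in the tables, so the catalytic subunits of complex IV and the core membrane subunits of complex I that mitochondria encode were not analysed here.

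Between the fractions, 3 genes of complex IV had the highest differences of all members at both ages. Cox4i2, Ndufa4l2 and Cox6b2, each a minor isoform or paralog of a subunit, were higher in pHes1_EPC than in pHes1_ENC at both ages and widened their difference from P1 to P4. The plot of the fraction differences by complex shows them above a band in which most of the other members lie close together.

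**Figure D1:**
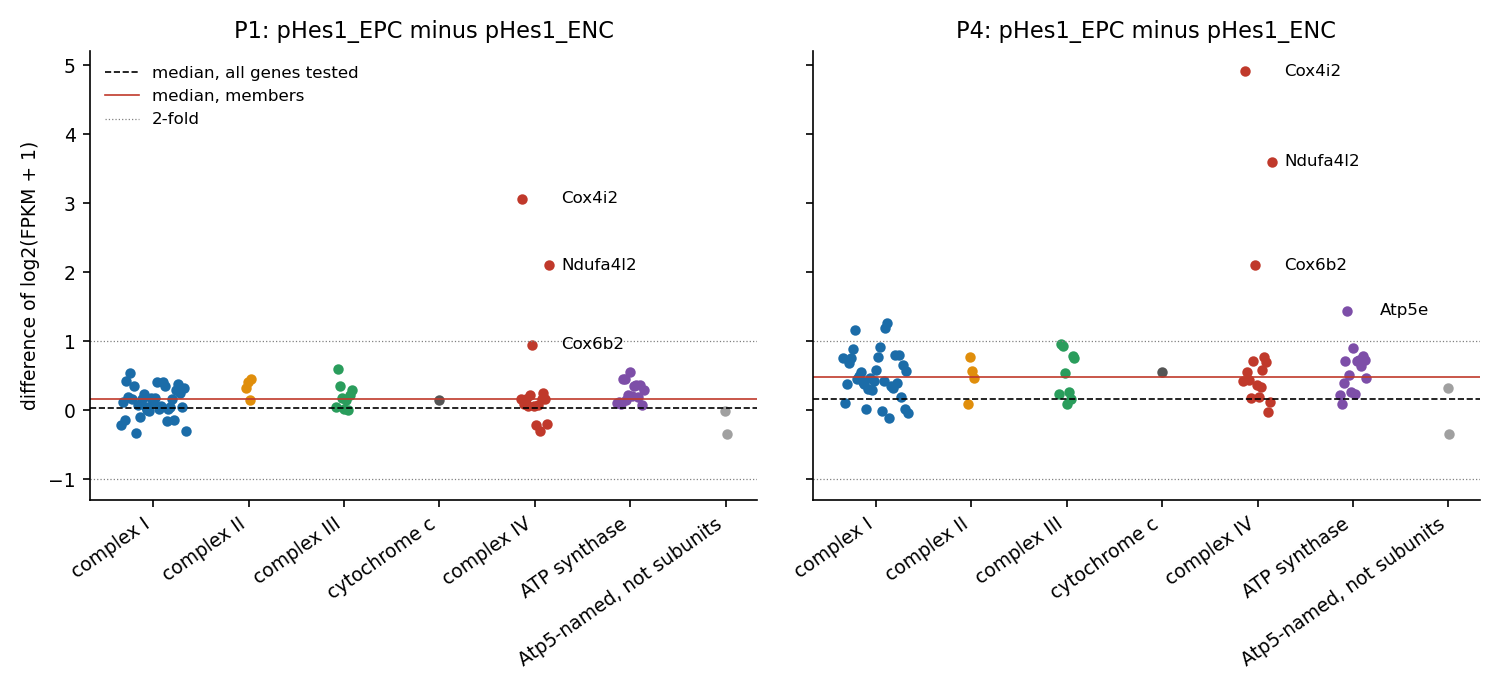
Difference of log2(FPKM + 1) between pHes1_EPC and pHes1_ENC at P1 (left) and P4 (right) for the 82 members with a mean FPKM of at least 1, one point per gene, by complex. Lines mark the median of the members (0.16 at P1 and 0.48 at P4), the median of all 12176 genes (0.03 and 0.16) and 2-fold; at P4 the members' median became -0.03 once the trend with transcript length was subtracted, while Cox4i2, Ndufa4l2 and Cox6b2 stayed above 1.

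Cox4i2 (NCBI37/mm9 chr2:152579909-152590773), the isoform of cytochrome c oxidase subunit 4 known from lung and from cells under low oxygen, had 8.18, 75.9, 3.07 and 122 FPKM. It was high in both pHes1_EPC libraries and low in both pHes1_ENC libraries. Its difference was 3.07 at P1, an FPKM ratio of 9.28 with a range of 6.76 to 12.2 from the intervals, and 4.91 at P4, a ratio of 39.6 with a range of 23.3 to 56.9. Of the 12176 genes, Cox4i2 ranked 7 from the highest difference at P1 and 3 at P4. The low end rested on few reads, about 29.6 in P4 pHes1_ENC by the interval width, and about 1042 in P4 pHes1_EPC.

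Cox4i1, the ubiquitous isoform of the same subunit, had 218, 245, 349 and 466 FPKM. Its fraction differences were 0.17 and 0.42, near those of the other subunits. Cox4i2 therefore made up 23.7% and 20.7% of the summed FPKM of the pair in pHes1_EPC at P1 and P4, and 3.62% and 0.87% in pHes1_ENC. The share in pHes1_EPC was close at both ages, whereas that in pHes1_ENC was lower at P4, where Cox4i2 differed by -1.17 from P1. Cox4i1 remained the more abundant gene of the pair in all 4 libraries.

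Ndufa4l2 (chr10:126951995-126954210), a paralog of Ndufa4 known as a target of the hypoxia-inducible factor HIF-1, had 35.9, 157, 34.2 and 425 FPKM. Both pHes1_ENC libraries were alike and both pHes1_EPC libraries lay above them. The differences were 2.10 at P1, a ratio of 4.38 with a range of 3.71 to 5.01, and 3.60 at P4, a ratio of 12.4 with a range of 10.6 to 13.8. Of the 12176 genes, Ndufa4l2 ranked 142 from the highest difference at P1 and 88 at P4. Ndufa4 itself had 150, 131, 290 and 317 FPKM and differed by only -0.20 and 0.12 between the fractions. Ndufa4l2 was 19.3% of the pair in P1 pHes1_ENC and 10.5% in P4 pHes1_ENC, but 54.6% in P1 pHes1_EPC and 57.3% in P4 pHes1_EPC. In pHes1_EPC the paralog was thus listed above Ndufa4 at both ages, and with interval midpoints in place of FPKM its shares there were 61.9% and 64.5%.

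Cox6b2 (chr7:4703396-4704696), the testis isoform of subunit 6b, had 9.16, 18.6, 5.32 and 26.04 FPKM. The differences were 0.95 at P1 and 2.10 at P4, and the P4 ratio was 4.90 with a range of 3.20 to 8.08. At P1 the ratio was 2.03 with a range of 1.37 to 3.10, which overlapped that of the complex III subunit Uqcr10, 1.21 to 1.88. Of the 12176 genes, Cox6b2 ranked 1390 from the highest difference at P1 and 607 at P4. It stayed the minor gene beside Cox6b1, which had 131, 154, 196 and 323 FPKM. Its share of the pair was 6.53%, 10.8%, 2.64% and 7.47%, and with interval midpoints in place of FPKM it was 10.1%, 16.3%, 4.22% and 11.6%. None of the 36-base windows of Cox4i2, Ndufa4l2, Cox6b2 or Cox4i1 transcripts had an exact copy elsewhere in the genome.

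The tissue isoforms Cox7a1, Cox6a2, Cox7b2 and Cox8c were low. Cox7a1, the muscle isoform of subunit 7a, had 1.77, 1.39, 3.35 and 3.99 FPKM, at most 1.62% of the FPKM of its trio with Cox7a2 and Cox7a2l. Cox6a2 of heart and skeletal muscle was at most 0.0860 FPKM, Cox7b2 at most 0.112, and the testis isoform Cox8c was listed at 0 in all 4 libraries. Their partners Cox6a1, Cox7b and Cox8a had 323, 74.4 and 299 FPKM in P4 pHes1_EPC. Cox7a2l, a relative of subunit 7a, was abundant and differed from Cox7a2, with -0.31 beside 0.08 between the fractions at P1 and -0.01 beside 0.59 between the ages in pHes1_ENC. Copied 36-base windows make up 67.6% of Cox7a2l, so its level is uncertain. The 3 genes Atp5g1, Atp5g2 and Atp5g3 encode the same mature c subunit of the ATP synthase rotor. Atp5g2 made up 41.5%, 47.5%, 32.1% and 42.9% of their sum, higher in pHes1_EPC than in pHes1_ENC at each age, and Atp5g3 made up 48.6%, 43.6%, 56.2% and 47.1%. Atp5g1 stayed between 8.97% and 11.6%. The split between Atp5g1 and Atp5g2 is uncertain, because 87.3% and 100% of their 36-base windows occur elsewhere in the genome, while Atp5g3 has none.

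**Figure D2:**
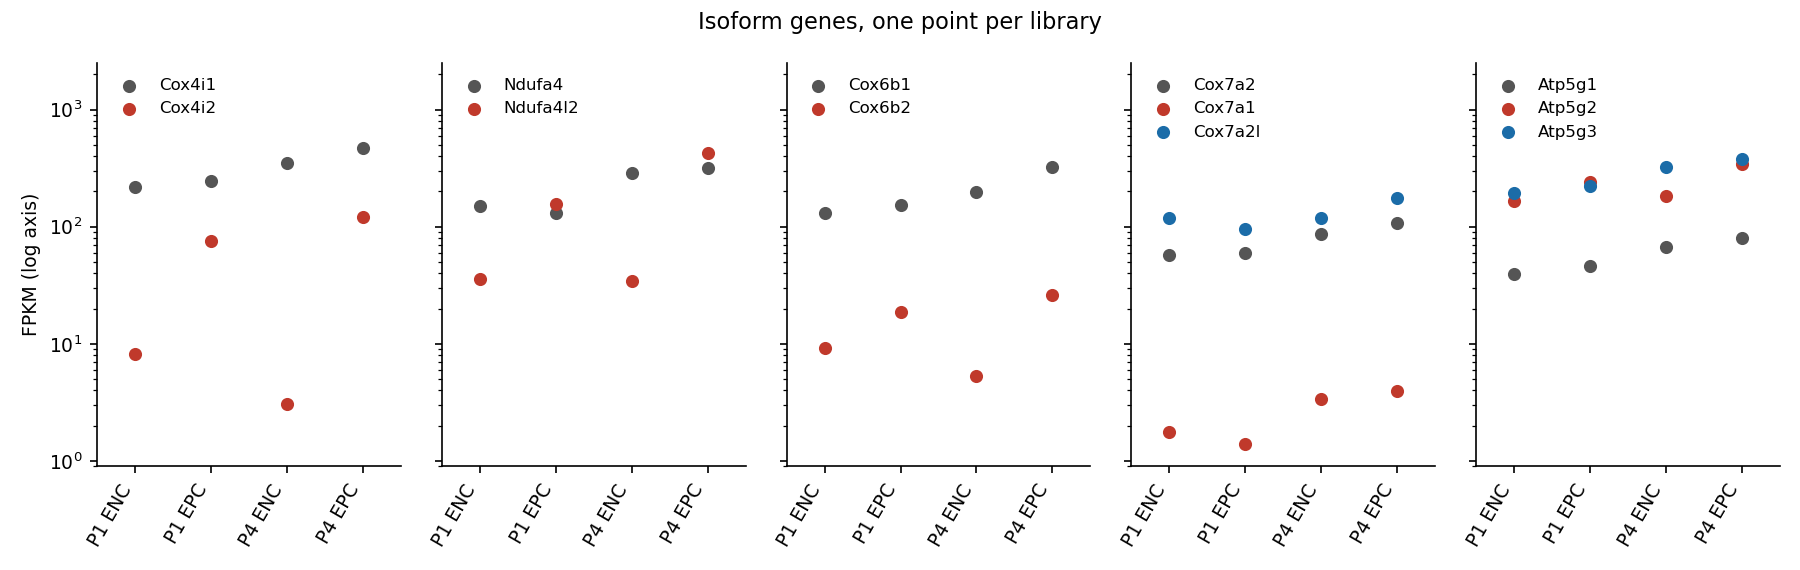
FPKM (log axis) of the genes of 5 isoform groups in the 4 libraries, one point per gene and library. Cox4i2 ranges from 3.07 to 122 FPKM and Ndufa4l2 from 34.2 to 425, with both pHes1_EPC libraries above both pHes1_ENC libraries, whereas Cox4i1 stays between 218 and 466.

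Apart from these 3 genes, fraction differences were small at P1. Over the 82 members the median was 0.16 beside 0.03 over all 12176 genes, and 69 members lay above 0 (52.3% of all genes). More than 2-fold higher in pHes1_EPC were 2 members, Cox4i2 and Ndufa4l2, where 10.7% of all genes passed, and 0 members were more than 2-fold lower, where 11.3% of all genes passed. By intervals that did not overlap, 31 members were higher (35.4% of all genes) and 4 were lower (32.2% of all genes). The 4 lower members were Ndufa6, Ndufv3, Cox7a2l and Atp5sl, with differences of -0.33, -0.29, -0.31 and -0.34. Of these, Ndufa6 and Cox7a2l were higher in pHes1_EPC at P4 with intervals apart, a switch that 4.01% of all genes made, and 0 members switched the other way, as 1.89% of all genes did.

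At P4 the median over the members was 0.48 beside 0.16 over all genes, with 77 of the 82 members above 0 (59.0% of all genes). The members' median became -0.03 once the trend with transcript length, described further on, was subtracted. More than 2-fold higher were 7 members, or 8.54%, where 16.9% of all genes passed, and 0 were more than 2-fold lower, where 9.41% of all genes passed. By intervals that did not overlap, 67 members were higher (44.9% of all genes) and 1, Atp5sl, was lower at -0.34 (29.3% of all genes). Beyond the 3 isoform genes, those past 2-fold were Atp5e, the epsilon subunit of the F1 stalk, at 1.44, and the accessory subunits of the complex I membrane arm Ndufc2, Ndufc1 and Ndufa3 at 1.27, 1.19 and 1.17. Atp5e had 175, 239, 202 and 551 FPKM and Ndufc2 had 68.9, 88.2, 79.2 and 192 FPKM, so P4 pHes1_EPC alone was high. The count of 7 depended on scaling, with 4 members past 2-fold once FPKM were rescaled to the same total and 3, which were the 3 isoform genes, after quantile normalization.

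Complex I, which oxidizes NADH, had a median fraction difference of 0.12 at P1 and 0.45 at P4. Its 7 core subunits had medians of 0.05 and 0.33 and its 28 accessory subunits 0.14 and 0.48. The flavin subunit Ndufv1, where NADH is oxidized, had 50.3, 51.8, 73.5 and 74.5 FPKM, and Ndufs1, the largest iron-sulfur subunit, had 26.6, 23.8, 33.0 and 30.3 FPKM. Both were thus nearly equal in the fractions at each age, and Ndufs1 had the lowest P4 difference of the complex, at -0.12. At P1 the highest difference was that of the accessory subunit Ndufa2, at 0.54.

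Complex II, which is also an enzyme of the TCA cycle, had medians of 0.36 at P1 and 0.51 at P4 over 4 genes. Sdha, its flavoprotein, had 46.6, 58.5, 60.2 and 64.1 FPKM and a P4 difference of 0.09. Its iron-sulfur partner Sdhb had 44.6, 59.5, 51.8 and 89.6 FPKM and a P4 difference of 0.78, and the membrane anchors Sdhc and Sdhd lay between them at 0.56 and 0.46. The 2 catalytic subunits of the complex thus differed in how far the P4 libraries were apart.

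Complex III had medians of 0.17 and 0.54. Cyc1, its cytochrome, and Uqcrfs1, the Rieske iron-sulfur protein, had P4 differences of 0.23 and 0.16, and the core protein Uqcrc1 had 0.09. The small subunits were further apart, with Uqcr10 at 0.96, Uqcr11 at 0.93 and the hinge protein Uqcrh at 0.78. Uqcrh was the most abundant, with 131, 153, 202 and 347 FPKM. Cycs, the electron carrier between complexes III and IV, was listed far lower, with 8.52, 9.53, 9.88 and 15.0 FPKM and differences of 0.15 and 0.55. Copied windows make up 40.7% of Cycs, so its low level is uncertain.

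Complex IV had medians of 0.16 and 0.50, and of 0.09 and 0.42 without Cox4i2, Ndufa4l2 and Cox6b2. ATP synthase had medians of 0.22 and 0.63, and all 15 of its genes lay above 0 at both ages (52.3% and 59.0% of all genes). That sign did not hold under every alternative. At P4 Atp5a1, Atp5b, Atp5g1 and Atp5g3 ranged down to -0.20, -0.38, -0.36 and -0.39. At P1 Atp5l, Atp5a1, Atp5b and Atp5j2 ranged down to -0.12, -0.06, -0.01 and -0.01. The 5 ATP synthase genes of F1, its head and central stalk, had medians of 0.12 and 0.39. The 10 genes of the peripheral stalk and the membrane part had 0.26 and 0.68. The catalytic subunits Atp5a1 and Atp5b had P4 differences of only 0.23 and 0.09. Atp5s and Atp5sl, which are not structural subunits, differed by 0.32 and -0.34.

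The spread among subunits followed transcript length. Subunit transcripts are short, with a median of 757.5 bases beside 2850 over all genes with a length, and when all genes were put into 10 bins of equal size by length, 57 of the 82 members lay in the shortest bin. Members under 700 bases had a median P4 difference of 0.67, those of 700 to under 1200 bases 0.51 and those of 1200 bases or more 0.29. Other genes showed the same trend. Genes of the shortest bin that are not members had a median P4 difference of 0.63, beside 0.58 for the members in that bin, and those of the next bin 0.40, beside 0.39. Among the longest genes the median was -0.29. With the median of each length bin subtracted, the members' median was 0.00 at P1 and -0.03 at P4, and only Cox4i2, Ndufa4l2 and Cox6b2 were still past 2-fold at P4, at 4.28, 2.97 and 1.47. The bulk of the subunits thus differed between the fractions no more than other transcripts of their length, and the cause of this trend was not tested.

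**Figure D3:**
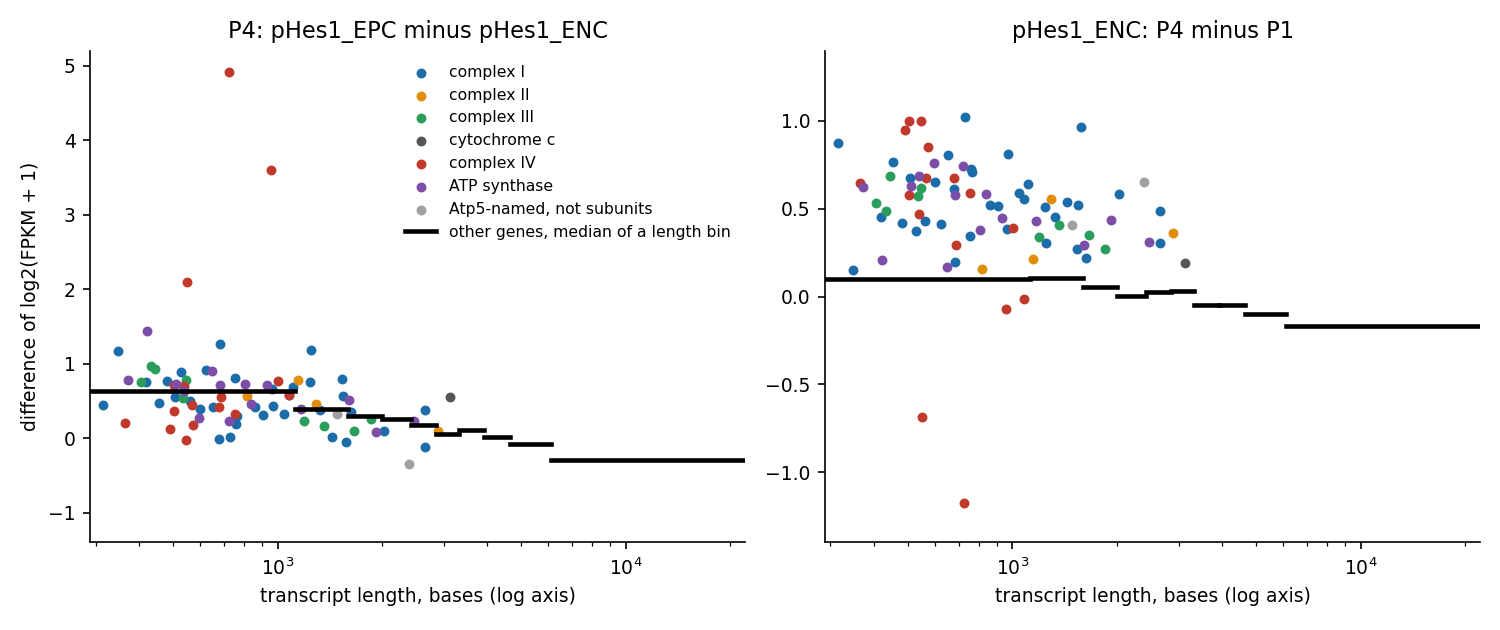
Difference of log2(FPKM + 1) against transcript length (log axis) for the 82 members, one point per gene coloured by complex, at P4 between the fractions (left) and between P4 and P1 in pHes1_ENC (right). Black bars give the median of the other genes in each of 10 bins of transcript length; in the shortest bin they stand at 0.63 (left) and 0.10 (right), and the members there have medians of 0.58 and 0.58.

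Between the ages, subunit mRNAs were higher at P4 in both fractions. In pHes1_EPC the median was 0.87 over the members and 0.19 over all genes, and all 82 members lay above 0 in the values as deposited (63.8% of all genes). More than 2-fold higher at P4 were 28 members, or 34.1%, where 7.24% of all genes passed, and 0 were more than 2-fold lower, where 4.49% of all genes passed. Under other scalings that count was between 1 and 11, without members with copied windows it was 13, and with the length trend subtracted it was 0. By intervals, 81 members were higher (44.5% of all genes) and 0 lower (23.1% of all genes). The largest differences were those of Ndufa4l2 at 1.43, the accessory complex I subunit Ndufa1 at 1.43, Cox6c at 1.30 and the Fo subunit Atp5l at 1.29. Copied windows make up 14.3% of Ndufa1, 32.5% of Cox6c and 89.7% of Atp5l, so their values are less certain. Ndufa4l2 has no copied windows. Ndufa1 had 42.4 FPKM in P1 pHes1_EPC and 116 in P4 pHes1_EPC. The smallest difference was that of Sdha, at 0.13.

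In pHes1_ENC the median was 0.51 over the members and 0.00 over all genes, and 78 members lay above 0 (50.2% of all genes). More than 2-fold higher was 1 member, the complex I subunit Ndufb10 at 1.02 with 62.6 FPKM at P1 and 128 at P4 (4.74% of all genes passed), and 1 was lower, Cox4i2 at -1.17 (9.94% of all genes passed). By intervals, 67 members were higher (28.1% of all genes), and 2, Cox4i2 and Cox6b2, were lower (30.7% of all genes). Ndufa4l2 at -0.07 and Cox7a2l at -0.01 were the other members below 0. Leaving Cox4i2, Ndufa4l2 and Cox6b2 aside, 78 of 79 members lay above 0.

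This age difference was not matched by other short transcripts in pHes1_ENC, and was matched in part in pHes1_EPC. In pHes1_ENC, the non-member genes of the shortest bin had a median of 0.10 and the members there 0.58, and in the next bin the values were 0.10 and 0.43. In pHes1_EPC the corresponding pairs were 0.62 and 0.96, and 0.45 and 0.74. With the length trend subtracted, the members' median was 0.40 in pHes1_ENC and 0.29 in pHes1_EPC. The cytosolic ribosomal proteins, which also have short transcripts, with a median of 775 bases, differed by -0.03 in pHes1_ENC and 0.75 in pHes1_EPC, and the mitochondrial ribosomal proteins by 0.24 and 0.57. Subunits of oxidative phosphorylation and cytosolic ribosomal proteins thus separated in pHes1_ENC, where they differed by 0.51 and -0.03.

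**Figure D4:**
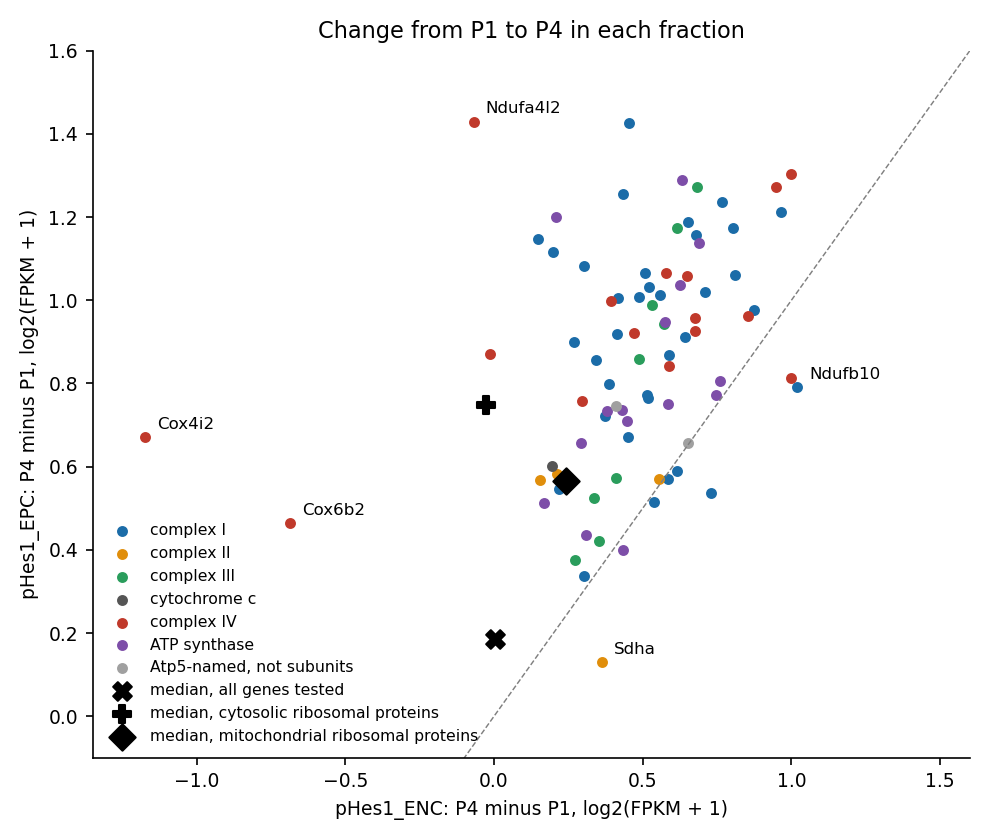
Difference of log2(FPKM + 1) between P4 and P1 in pHes1_ENC (horizontal axis) and pHes1_EPC (vertical axis) for the 82 members, one point per gene coloured by complex, with medians of 3 gene sets as black symbols and a dashed line of equal change. Apart from Cox4i2, Cox6b2, Ndufa4l2 and Cox7a2l the members lie at positive values on both axes, while the median of all genes is at 0.00 and 0.19.

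By complex, the medians of the age difference in pHes1_EPC and pHes1_ENC were 0.98 and 0.52 for complex I, 0.57 and 0.29 for complex II, 0.86 and 0.49 for complex III, 0.94 and 0.58 for complex IV and 0.75 and 0.45 for ATP synthase. Complex II, with transcripts of 1214.5 bases at the median, had the lowest median of these complexes in both fractions. In complex I the accessory subunits had 1.02 and the core subunits 0.55 in pHes1_EPC, but both had 0.52 in pHes1_ENC, and their median lengths were 744.5 and 1438 bases. In complex IV without the 3 isoform genes the medians were 0.96 and 0.65. Atp5b, whose transcript is longer, had 0.40 and 0.43.

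Rod genes moved in the same direction over this interval. The 3 rod markers summed to 326 FPKM in P1 pHes1_ENC and 2025 in P4 pHes1_ENC, and to 18.2 and 371 FPKM in pHes1_EPC. The 8 Müller glia and progenitor markers fell by a median of 1.501 in pHes1_ENC and differed by 0.17 in pHes1_EPC. In sorted bulk cells a changed mix of cell types and a changed level per cell cannot be told apart, and the part of the rods in the age difference of the subunits was not tested.

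Of the genes that build the complexes, 29 of 47 assembly factors searched for were found, and all 29 had a mean FPKM of at least 1. Their medians were 0.13 and 0.26 between the fractions at P1 and P4, and 0.43 and 0.23 between the ages in pHes1_EPC and pHes1_ENC. At P4 1 of 29 was more than 2-fold higher, Cox18 at 1.02, and 1 was lower, Pet117 at -1.17, where 16.9% and 9.41% of all genes passed. Cox19, an assembly factor of complex IV, was lower at P1, at -1.03. Assembly factors thus showed a smaller age difference than the subunits, at a longer median length of 1948.5 bases.

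In the TCA cycle, 18 enzymes had medians of 0.15 at P1 and 0.25 at P4 between the fractions, and 3 were more than 2-fold higher in pHes1_EPC at P4, a share close to the 16.9% of all genes. Suclg2, the GTP-forming beta subunit of succinyl-CoA ligase, had 4.26, 19.2, 0.984 and 17.5 FPKM and differences of 1.94 and 3.22. Its ATP-forming counterpart Sucla2 had 17.9, 22.5, 14.3 and 31.0 FPKM and differences of 0.32 and 1.07. The shared alpha subunit Suclg1 differed by 0.01 and 0.25. Pcx, pyruvate carboxylase, which refills the cycle and is known as a glial enzyme in the brain, had 4.62, 12.6, 1.69 and 7.74 FPKM and differences of 1.27 and 1.70. Like Cox4i2, both Suclg2 and Pcx were high in both pHes1_EPC libraries and lowest in P4 pHes1_ENC.

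Regulators of mitochondrial biogenesis were mixed, with 17 tested genes and medians of 0.18 and 0.24 between the fractions. Polg, the mitochondrial DNA polymerase, was higher in pHes1_EPC by 1.17 and 1.45, and the coactivator Pprc1 by 1.03 and 1.04. Esrrg, a nuclear receptor of oxidative metabolism, had 9.49, 0.641, 10.8 and 1.56 FPKM and differences of -2.68 and -2.21. The coactivators Ppargc1a and Ppargc1b were higher at P4 in pHes1_ENC, by 1.55 and 1.84, at 5.03 and 3.44 FPKM, and Ppargc1b was lower in pHes1_EPC than in pHes1_ENC at P4, with a difference of -1.43. Nrf1, Gabpa and Tfam differed by at most 0.54 in either direction in any comparison.

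Genes known to respond to low oxygen did not all follow Cox4i2 and Ndufa4l2. Of 23 tested, 6 were more than 2-fold higher in pHes1_EPC at P4 and 1 was lower, where 16.9% and 9.41% of all genes passed. At P1 3 were higher and 3 lower, near the 10.7% and 11.3% of all genes. The glucose transporter Slc2a1 was higher by 1.83 and 1.62, the glycolytic enzyme Pgk1 by 1.02 and 1.87 and the HIF prolyl hydroxylase Egln3 by 1.07 and 1.98. At P4 Pdk1, Adm and Epas1 were also higher, by 1.78, 1.66 and 1.20. Ndrg1 was lower in pHes1_EPC, with differences of -1.51 and -1.66, and Mxi1 and Ddit4 were lower at P1, at -1.25 and -1.04. Vegfa, at 59.8, 75.4, 60.4 and 112 FPKM, differed by 0.33 and 0.88, and Ldha by -0.43 and -0.92.

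Of the 12 tested genes of exchange with the cytosol, Ckb, the brain creatine kinase, had 1060, 2249, 1205 and 3399 FPKM and differences of 1.08 and 1.49. Its mitochondrial partner Ckmt1 had 6.86, 1.18, 38.6 and 9.39 FPKM and differences of -1.85 and -1.93. The 2 creatine kinases therefore leaned to opposite fractions at both ages. Higd2a, a complex IV assembly and stability factor, was lower in pHes1_EPC at P1, at -1.34. The median over these 12 genes was -0.02 at P1 and 0.45 at P4.

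Pericytes are known to express both Cox4i2 and Ndufa4l2. Of 8 mural cell markers, Rgs5, Kcnj8, Abcc9 and Des were at or below 0.218 FPKM in every library. Their summed level ranged from 3.91 to 5.57 FPKM in pHes1_ENC and from 8.65 to 13.4 FPKM in pHes1_EPC, most of it Acta2, Pdgfrb and Notch3. Pdgfrb had 0.670, 1.68, 0.0829 and 1.52 FPKM and Notch3, which progenitors also express, had 1.36, 8.33, 0.289 and 2.88 FPKM. The P4 differences of Pdgfrb and Notch3 were 1.22 and 1.59. The highest mural marker of P4 pHes1_EPC was Acta2 at 3.64 FPKM, and Cox4i2 there was at 122 FPKM. Of 5 endothelial markers, Pecam1, Cdh5 and Tek stayed at or below 0.142 FPKM. Kdr, the VEGF receptor 2, had 46.9, 209, 12.01 and 189 FPKM and differences of 2.13 and 3.87, and Cldn5, a tight junction claudin, had 16.3, 3.49, 2.59 and 4.06 FPKM. The 5 markers summed to 63.4, 212, 14.8 and 193 FPKM, nearly all of it Kdr in pHes1_EPC. The sum thus followed Kdr and not the marker set, since Cldn5 differed by -1.95 at P1 and 0.50 at P4. The part of vascular cells in the fraction differences of Cox4i2 and Ndufa4l2 was not tested. Red cell RNA was in pHes1_ENC, with Hba-a1 at 81.9, 0.151, 205 and 3.61 FPKM.

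Promoter sequence was looked at for 69 of the 85 members, those with an entry in the RefSeq promoter table (GRCm38.p6). Cox4i1, Cox4i2 and Ndufa4l2 were among the members without one. The 250 bases before the start were searched on both strands for 4 motifs, of which the ETS family and RBPJ cores share the letters GGAA. Shares are of 75 member windows, since some members have more than 1 start, beside 32851 windows in all. The NRF1 core GCATGCGC was in 12% beside 2.26%, the ETS family core CCGGAAG in 16% beside 6.91%, the hypoxia response core ACGTG in 24.0% beside 16.6% and the RBPJ core TGGGAA in 18.7% beside 21.6%. NRF1 and ETS factors are known regulators of respiratory genes. A match is a description of letters and not a site.

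Windows of 4 members are printed, with motif matches in capitals on the strand of the gene: Cox6b1 and Cox6b2 as the isoform pair of which Cox6b2 stood apart between the fractions, Atp5e for the highest P4 difference in ATP synthase, and Cycs as a gene with an NRF1 core. They lie at chr7:30626115-30626364 (Cox6b1), chr7:4753095-4753344 (Cox6b2), chr2:174464102-174464351 (Atp5e) and chr6:50566570-50566819 (Cycs), all on the minus strand of GRCm38.p6.
Cox6b1: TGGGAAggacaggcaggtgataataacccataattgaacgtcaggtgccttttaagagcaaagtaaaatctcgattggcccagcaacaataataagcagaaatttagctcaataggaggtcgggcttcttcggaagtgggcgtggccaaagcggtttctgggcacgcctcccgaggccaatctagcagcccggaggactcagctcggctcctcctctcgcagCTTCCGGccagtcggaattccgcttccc
Cox6b2: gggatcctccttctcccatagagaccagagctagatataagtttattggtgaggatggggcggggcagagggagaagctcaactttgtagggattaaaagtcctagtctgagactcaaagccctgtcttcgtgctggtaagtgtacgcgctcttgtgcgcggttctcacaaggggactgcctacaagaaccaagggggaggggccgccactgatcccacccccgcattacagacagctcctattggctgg
Atp5e: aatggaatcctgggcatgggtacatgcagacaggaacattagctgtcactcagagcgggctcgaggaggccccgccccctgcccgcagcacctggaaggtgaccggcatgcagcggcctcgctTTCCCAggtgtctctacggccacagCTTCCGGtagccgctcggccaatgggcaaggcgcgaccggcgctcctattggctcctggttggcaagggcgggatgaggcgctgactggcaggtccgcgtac
Cycs: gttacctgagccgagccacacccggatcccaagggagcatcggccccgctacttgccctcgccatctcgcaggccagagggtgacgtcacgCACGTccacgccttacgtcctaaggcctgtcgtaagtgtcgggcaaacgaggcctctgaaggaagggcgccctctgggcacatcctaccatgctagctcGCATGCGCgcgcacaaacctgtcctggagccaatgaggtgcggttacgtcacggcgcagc
Cox6b1 and Atp5e each hold 1 ETS family core and 1 RBPJ core, Cycs holds 1 NRF1 core and 1 hypoxia response core, and Cox6b2 holds none of the 4 motifs in this window.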

How the data were processed

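RNA-seq of 4 libraries was analysed, 1 for each fraction and age, grouped by the labels. Reads were single-end and 36 bases long. The authors used TopHat2 2.0.8b with up to 50 positions per read against NCBI37/mm9 and deposited gene FPKM with 95% intervals from Cufflinks 2.1.1 (submitters' processing notes also name bcl2fastq 1.8.4). The cDNA was recovered at 200 bp. Read counts were not used here. FPKM are per length and library, which lets levels of genes be set side by side; however, FPKM lay above its own interval for 63 to 65 of 82 members, by a factor against the midpoint of 0.993 to 2.95 that varied between libraries by at most 1.05 times, so levels between genes are less certain than ratios between libraries.

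Small RNAs (798 lines) were left out and the highest line was kept for 234 symbols with several lines, which left 21826 genes. Differences used a pseudocount of 1, genes needed a mean FPKM of at least 1, and no p-value is given because each group holds 1 library. Transcript length was taken from the coding GENCODE vM1 transcript with ends closest to the gene span, for 11687 of 12176 genes. Transcripts of members were cut into 36-base windows and searched for exact copies in NCBI37. More than 10% of windows had a copy for 37 of the 82 members, whose values are less certain. The stated library protocol does not mark strand, so reads of overlapping genes on opposite strands cannot be told apart.

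Members were named if past 2-fold in any comparison, in an isoform group, highest in mean FPKM or extreme in fraction difference within their complex, or catalytic. Other genes were named from lists if past 2-fold between fractions; Suclg1, Nrf1, Gabpa, Tfam, Vegfa, Ldha and Ppargc1a were chosen from these lists after their values were seen. The members and lists were chosen with earlier results of these data known. Alternatives were another pseudocount, no filter and a stricter one, 3 scalings, summed lines, status, intervals and a length correction. Interval midpoints, leaving out copied members and leaving out the 3 isoform genes were added after seeing the data. The steps were tested on simulated data. Python 3.11.15, numpy 2.4.6, pandas 2.3.3, scipy 1.17.1 and matplotlib 3.10.9 were used.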

Additional observations from a re-analysis of the deposited data

Results flagged for a closer look

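The fraction differences of 2 members pointed in opposite directions at P1 and P4 with intervals apart at both ages, both lower at P1 and higher at P4, which is 2.44% of the 82 members beside 4.01% of all genes; whether the ages differ was not tested, because each group holds 1 library. Ndufa6, an accessory subunit of complex I, had 68.8 FPKM in pHes1_ENC and 54.5 in pHes1_EPC at P1, and 93.1 and 131 at P4. Its difference was -0.3308 at P1 and 0.4926 at P4, and the P4 value ranged down to -0.13 over the alternatives. Cox7a2l, known as a factor that joins complexes III and IV into supercomplexes, had 119, 95.8, 118 and 176 FPKM in the same order, with differences of -0.3062 and 0.5768, and its P4 value ranged down to -0.05. Both low P4 values came from subtracting the trend with transcript length. Copied 36-base windows made up 67.6% of Cox7a2l and 2.86% of Ndufa6.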

How the results depend on the processing

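No paired analysis was possible because each group holds 1 library. Over 16 summary values and 156 alternatives, 127 stayed close to the reported value, 28 moved and 1 turned its sign. Summed lines and the status filter could not move any of them, since no member had several lines or a status other than OK. With the length trend subtracted, the members' median at P4 between the fractions was -0.0313, the median between the ages in pHes1_EPC was 0.287, 3 members were more than 2-fold higher at P4, and 0 were higher between the ages in either fraction. With FPKM rescaled to the same total, these medians were 0.194 and 0.541, 4 members were higher at P4, and 3 in pHes1_EPC and 0 in pHes1_ENC between the ages. With quantile normalization the medians were 0.172 and 0.493, 3 members were higher at P4, 1 was higher between the ages in pHes1_EPC and 0 were lower in pHes1_ENC. Median-of-ratios scaling gave 11 members higher in pHes1_EPC and 3 in pHes1_ENC, and a pseudocount of 0.1 gave 3 in pHes1_ENC. Of the median difference of all genes, rescaling to the same total made -0.06 and -0.10 between the fractions at P1 and P4 and -0.12 and -0.14 between the ages in pHes1_EPC and pHes1_ENC. Relative to all genes the members' median stayed at 0.20 to 0.46 at P4, 0.47 to 0.86 in pHes1_EPC and 0.37 to 0.54 in pHes1_ENC under every setting but the length correction, and at 0.00 to 0.16 at P1. Intervals that do not overlap, in place of 2-fold, gave 31 members higher and 4 lower at P1, 67 and 1 at P4, 81 higher in pHes1_EPC, and 67 higher and 2 lower in pHes1_ENC. Without members with copied windows 13 were higher in pHes1_EPC; without Cox4i2, Ndufa4l2 and Cox6b2 0 were higher at P1, 4 at P4 and 0 lower in pHes1_ENC. Of 2568 values of named members under the alternatives, 2214 stayed within the spread given by the intervals and 354 moved. Many of the 2214 were fixed in advance. Filters on level or status, summed lines and leaving out other members cannot alter a named member's difference. Sign changes of differences up to 1 in size were not counted apart, such as Atp5b at P4, from 0.09 down to -0.38. The P4 difference ranged from 4.28 to 5.26 for Cox4i2, 2.97 to 3.63 for Ndufa4l2 and 1.47 to 2.27 for Cox6b2. The fall of Cox4i2 in pHes1_ENC ranged from -0.93 to -1.46. The main limits are the single library in each group and the low read number of Cox4i2 in P4 pHes1_ENC.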
